A study of Mus musculus with 9 samples.

Results

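The 8 genes described here make polyamines or hold their level in check. They were chosen by symbol: the synthesis genes Odc1, Srm, Sms and Amd1, and the control genes Oaz1, Oaz2, Azin1 and Sat1. All 8 were found, 1 row each, among the 46078 genes of the deposited table. Transcript 3′ ends were sequenced in 6 T cell lymphomas induced by MYCN, a transcription factor of the MYC family, and taken from the thymus (lymphomas 34, 53, 56, 70, 72 and 86), and in 3 libraries of CD4+ T cells from the spleen (CD4 1, 2 and 3). All mice were of the C57BL/6J strain. The promoter and cell type that drive MYCN, the ages of the mice and any treatment are not given in the sources used here. The question put to the data was how the polyamine genes of the lymphomas compare with those of the control T cells.

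Polyamines are small positively charged molecules that bind nucleic acids and are needed for cell growth. Ornithine decarboxylase turns ornithine into putrescine, and spermidine and spermine are then built by adding aminopropyl groups, which S-adenosylmethionine decarboxylase supplies. The pool is held in check by antizymes, which bind ornithine decarboxylase and send it to the proteasome, by an antizyme inhibitor that takes antizyme away, and by an acetyltransferase that marks polyamines for export or back-conversion. Ornithine decarboxylase is a textbook target of MYC proteins, which bind the E box CACGTG. Antizyme is made by a shift of reading frame that polyamines promote, so its transcript level does not give its protein level.

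Promoter windows of the 250 bases before a RefSeq transcript start (GRCm38.p6) were at hand for 6 of the 8 genes: Odc1, Sms, Amd1, Oaz1, Oaz2 and Sat1. They were searched for CACGTG, which reads the same on both strands, and for the related CACGCG with its reverse complement CGCGTG. The latter 2 can overlap each other, and neither can overlap the first. All windows at hand for synthesis genes are printed (Odc1, Amd1 and 2 starts of Sms), with that of Sat1, the control gene that fell. Capitals mark the matches. The Odc1 stretch is chr12:17544623-17544793 on the plus strand and stops where the annotated GENCODE exon begins. The others are on the minus strand: chrX:157492288-157492537 and chrX:157491373-157491618 for the first and second start of Sms (the latter without the bases that lie in a GENCODE exon), chr10:40302189-40302438 for Amd1 and chrX:155216450-155216699 for Sat1.
Odc1: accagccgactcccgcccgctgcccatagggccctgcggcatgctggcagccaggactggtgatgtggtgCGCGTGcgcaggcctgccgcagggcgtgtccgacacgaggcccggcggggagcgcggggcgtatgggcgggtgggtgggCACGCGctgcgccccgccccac
Sms, first start: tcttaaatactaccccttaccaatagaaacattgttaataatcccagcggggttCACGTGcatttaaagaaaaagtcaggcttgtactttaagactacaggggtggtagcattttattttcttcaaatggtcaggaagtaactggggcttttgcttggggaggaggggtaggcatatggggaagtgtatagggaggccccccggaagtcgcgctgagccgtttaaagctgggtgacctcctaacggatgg
Sms, second start: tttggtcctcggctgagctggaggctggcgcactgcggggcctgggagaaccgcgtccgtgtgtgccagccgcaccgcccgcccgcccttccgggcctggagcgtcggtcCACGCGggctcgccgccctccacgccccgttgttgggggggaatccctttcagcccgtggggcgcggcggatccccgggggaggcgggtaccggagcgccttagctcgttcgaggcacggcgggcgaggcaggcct
Amd1: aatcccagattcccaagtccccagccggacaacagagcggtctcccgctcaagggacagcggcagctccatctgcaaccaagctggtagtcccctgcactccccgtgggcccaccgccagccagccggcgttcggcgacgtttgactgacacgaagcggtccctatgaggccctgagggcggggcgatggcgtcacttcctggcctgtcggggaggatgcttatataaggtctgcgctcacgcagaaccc
Sat1: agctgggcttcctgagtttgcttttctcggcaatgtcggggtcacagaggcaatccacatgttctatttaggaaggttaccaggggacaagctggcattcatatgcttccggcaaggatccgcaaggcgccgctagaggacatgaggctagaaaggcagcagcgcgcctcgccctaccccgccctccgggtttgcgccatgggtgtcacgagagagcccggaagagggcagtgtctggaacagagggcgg
Among all windows of the 6 genes, CACGTG occurred once, at the first start of Sms, with its first base 196 bases before the start. Odc1 held CGCGTG and CACGCG, 180 and 101 bases before its start. The second start of Sms and the start of Oaz1 had CACGCG, at 140 and 212 bases. The windows of Amd1, Oaz2 and Sat1 held neither motif. Over all 32851 windows in the RefSeq table, 6.02% held CACGTG and 7.62% held CACGCG or CGCGTG. In windows of tested genes the shares were 8.03% and 13.6%. A match describes these letters and is no evidence of binding. Bases outside these windows were not searched, so a gene without a match here may hold the motif elsewhere, for example after its start.

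Counts in genes came to 11170704 to 15769679 per lymphoma and 8099960 to 10808828 per CD4 library, and the 8 genes had 71 to 5393 counts each. Levels are given as CPM, counts per 1000000 after TMM scaling, and fold changes are lymphoma over CD4 on the log2 scale, tested with edgeR's quasi-likelihood test. A gene is called higher or lower at a Benjamini-Hochberg adjusted p under 0.05 over the 15401 tested genes. Each lymphoma has an m number of its own in its title, and the CD4 libraries are numbered, but neither is stated to be a separate animal. Where they are not, p-values measure only the spread between libraries. The driver could not be checked: mouse Mycn had 0 to 3 counts in the lymphomas and 0 to 6 in CD4, and a transgene was not analysed here. Of 11 T cell markers, 0 were higher and 2 lower in lymphoma: Cd4, at 35.3 ± 29.2 CPM (SD, n = 6) in lymphoma beside 240.0 ± 35.5 CPM (SD, n = 3), and Cd28, whose call was lost without CD4 3 (edgeR adjusted p 0.0934). Cd4 kept its call with any 1 library left out, but lost it in 2 of the 20 alternatives of the fit given at the end. All 10 B cell markers were lower in lymphoma, with a summed level of 6.12 to 12.7 CPM against 1134 to 1428 CPM in CD4, and none of them was at 0 in every lymphoma. Of 10 myeloid and dendritic markers, 5 were lower and 0 higher (summed 47.6 to 285 CPM against 269 to 332 CPM). The 285 CPM was in lymphoma 34, where the marker Mpo alone had 181 CPM. The next highest sum among lymphomas was 133 CPM, in lymphoma 56. Of 10 stromal and epithelial markers, 6 were tested, 2 were higher, 1 was lower and 3 were not called (summed 97.5 to 181 CPM against 212 to 234 CPM). Pecam1, the one called lower, made up most of the CD4 sum. It had 59.3 to 81.3 CPM in the lymphomas and 186 to 199 CPM in CD4. Epcam was higher, with a mean of 23.0 CPM in lymphoma and 1.59 CPM in CD4. Dcn, which was higher, and Krt5, Krt8 and Foxn1, which were not tested, had 0 counts in every CD4 library. In the lymphomas Dcn had at most 102 counts, and Krt5, Krt8 and Foxn1 at most 10, 10 and 4. None of the 7 tested erythroid markers passed the threshold (12.2 to 889 CPM against 100.1 to 359 CPM). All 12 cell division genes were higher in lymphoma (2229 to 3488 CPM against 256 to 303 CPM). The part of these other cells and of cell division in the results below was not tested. In such bulk libraries, fewer cells of a type and less RNA per cell cannot be told apart.

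All 8 genes passed the filter on low counts. Of the synthesis genes, 3 of 4 were higher and none lower. Of the control genes, 2 of 4 were higher and 1 lower. Over all tested genes, 46.6% were called, 24.7% as higher and 21.9% as lower. The median log2 fold change was 1.10 for the synthesis genes and 0.44 for the control genes, beside 0.04 for all tested genes. With so many genes called in this comparison, the counts for 4 genes are a description.

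**Figure D1:**
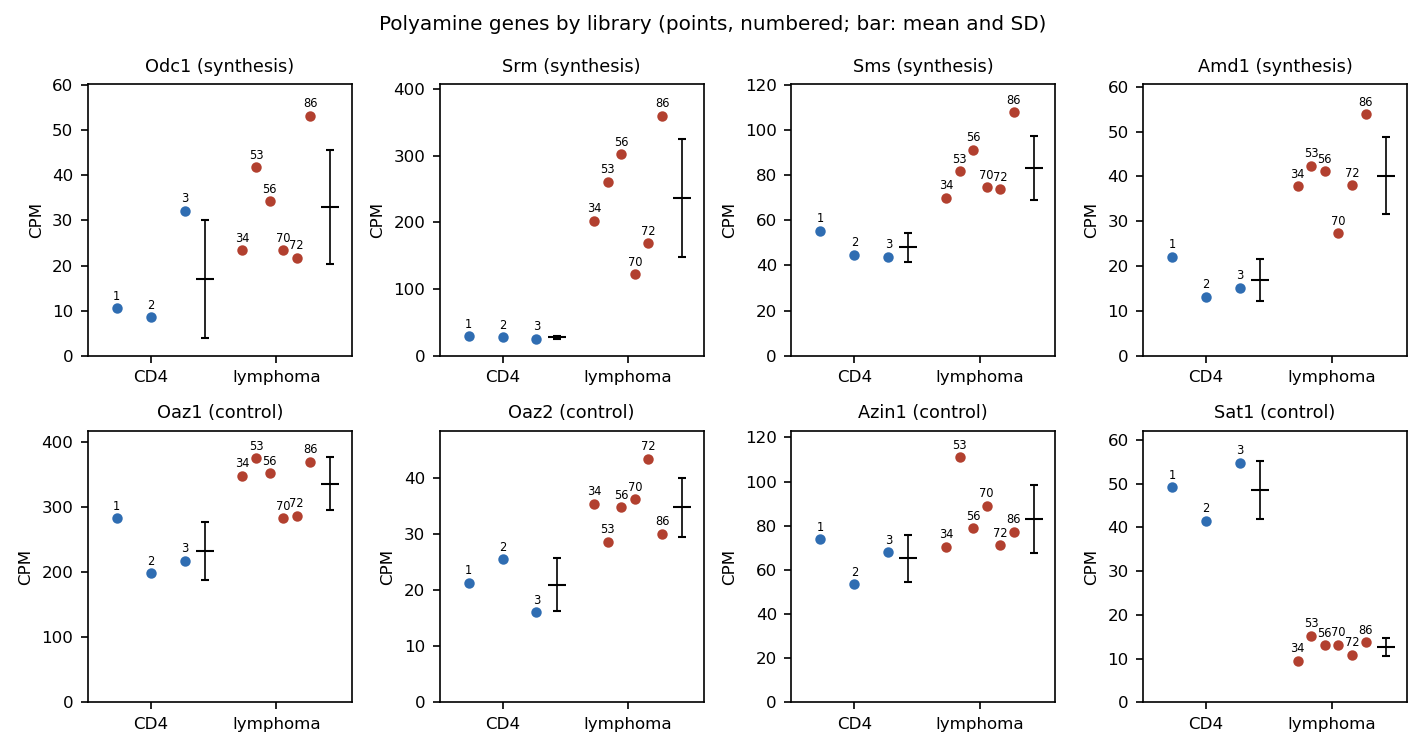
Level of each of the 8 genes in CPM (vertical axes start at 0 and differ between panels), with every library as a numbered point, CD4 in blue and lymphoma in red, and the mean with SD as a black bar. Srm, Sms, Amd1 and Oaz2 lie higher in every lymphoma than in every CD4 library, Sat1 lies lower in every lymphoma, and CD4 3 lies inside the lymphoma range for Odc1.

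Odc1 (ENSMUSG00000011179, chr12:17544794-17551505, plus strand, GRCm38) encodes ornithine decarboxylase, the rate-limiting enzyme of the pathway. Its level was 10.6, 8.52 and 32.1 CPM in CD4 1, 2 and 3, and 21.7, 28.8 and 53.1 CPM at the lowest, the median and the highest of the lymphomas. CD4 1 and CD4 2 were lower than every lymphoma, while CD4 3 was higher than 3 of the 6, so the groups overlapped. In edgeR the log2 difference was 0.94 (SE 0.446), at an adjusted p of 0.105, and was not called. This rested on CD4 3: without it the change was 1.79 with an edgeR adjusted p of 0.00613, so that the fold was 1.80 times as large. CD4 3 also stood apart from the other CD4 libraries in Slc7a1, the arginine and ornithine carrier of the cell surface, with 169 CPM against 66.6 and 60.2 CPM. Among CD4 libraries Odc1 varied with a coefficient of variation of 76.5%, where the median over the 9424 tested genes of average log2 CPM 3 or more was 18.1%. Among lymphomas it was 38.4%, beside a median of 23.1%.

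Srm (ENSMUSG00000006442, chr4:148591503-148594993, plus strand) encodes spermidine synthase, which joins an aminopropyl group to putrescine. It had 29.4, 28.1 and 26.0 CPM in CD4 1, 2 and 3, and 122, 232 and 360.0 CPM at the lowest, the median and the highest of the lymphomas. The 6 lymphomas lay far above the CD4 libraries, which were nearly equal to each other. The rise was 8.49-fold (log2 fold change 3.09, SE 0.340, edgeR adjusted p 2.37e-05), larger than that of 94.8% of tested genes. The lymphomas differed among themselves by up to 2.94-fold, the largest ratio of highest to lowest among the 8 genes in that group.

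Sms (ENSMUSG00000071708, chrX:157443855-157492287, minus strand) encodes spermine synthase, which adds the next aminopropyl group. It had 55.3, 44.8 and 43.9 CPM in CD4 1, 2 and 3, and 69.95, 78.2 and 108 CPM at the lowest, the median and the highest of the lymphomas. The groups did not overlap. The rise was 1.73-fold (log2 fold change 0.79, SE 0.185, edgeR adjusted p 0.00412).

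Amd1 (ENSMUSG00000075232, chr10:40287458-40302186, minus strand) encodes S-adenosylmethionine decarboxylase, which provides the aminopropyl donor for both synthases. It had 22.1, 13.2 and 15.2 CPM in CD4 1, 2 and 3, and 27.4, 39.6 and 53.9 CPM at the lowest, the median and the highest of the lymphomas. Every lymphoma exceeded every CD4 library. The rise was 2.38-fold (log2 fold change 1.25, SE 0.250, edgeR adjusted p 0.00158). Its value is uncertain, since of the 451 distinct 50-base words in the last 500 bases of its longest coding transcript, 445 (98.7%) also occur in Amd2, a near-identical gene with 3 to 34 counts per library.

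The same search found such words in other members. Of 451 words each, 165 (36.6%) of Oaz1 occur in the pseudogene Oaz1-ps, 80 (17.7%) of Odc1 occur in 5 processed pseudogenes and 11 (2.44%) of Sat1 in 2. None was found for Srm, Sms, Oaz2 and Azin1, within annotated transcripts. The snoRNA gene Gm22748 also overlaps the Odc1 gene on the same strand, with up to 126 counts in a library. Reads that aligned to more than 1 place were tallied in a row of their own, 16.1% to 18.6% of all reads in the lymphomas and 11.6% to 14.0% in CD4, and the read length is not given in the sources used here. The part of such reads in the results for Amd1, Oaz1 and Odc1 was not tested.

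Oaz1 (ENSMUSG00000035242, chr10:80826656-80829290, plus strand) encodes the main antizyme. It had 283, 198 and 217 CPM in CD4 1, 2 and 3, and 282, 350.0 and 375 CPM at the lowest, the median and the highest of the lymphomas. Lymphoma 70 lay just below CD4 1, so the groups overlapped at that point, and the other 5 lymphomas exceeded all CD4 libraries. Oaz1 rose 1.44-fold (log2 fold change 0.53, SE 0.168, edgeR adjusted p 0.0228). The call was lost without CD4 2 (log2 fold change 0.43, edgeR adjusted p 0.101) and without CD4 3 (0.49, edgeR adjusted p 0.0826).

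Oaz2 (ENSMUSG00000040652, chr9:65668001-65690300, plus strand) encodes a second antizyme. It had 21.4, 25.6 and 16.1 CPM in CD4 1, 2 and 3, and 28.7, 35.1 and 43.5 CPM at the lowest, the median and the highest of the lymphomas. Every lymphoma exceeded every CD4 library. The rise was 1.66-fold (log2 fold change 0.73, SE 0.212, edgeR adjusted p 0.0143), and it lost its call without CD4 3 (0.58, edgeR adjusted p 0.0689).

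Azin1 (ENSMUSG00000037458, chr15:38487427-38519266, minus strand) encodes antizyme inhibitor, a relative of ornithine decarboxylase without its activity. It had 74.0, 53.5 and 68.2 CPM in CD4 1, 2 and 3, and 70.5, 78.1 and 111 CPM at the lowest, the median and the highest of the lymphomas. CD4 1 lay above lymphomas 34 and 72, and the groups overlapped. The log2 fold change of 0.35 (SE 0.190) had an edgeR adjusted p of 0.157 and was not called. Leaving out 1 library gave values from 0.23 to 0.46, none of them called.

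Sat1 (ENSMUSG00000025283, chrX:155213132-155216449, minus strand) encodes spermidine/spermine N1-acetyltransferase, the enzyme that opens polyamine export and breakdown. It had 49.2, 41.5 and 54.8 CPM in CD4 1, 2 and 3, and 9.54, 13.2 and 15.3 CPM at the lowest, the median and the highest of the lymphomas. All 6 lymphomas lay under all 3 CD4 libraries, by a wide margin. Sat1 fell 3.84-fold (log2 fold change -1.94, SE 0.199, edgeR adjusted p 1.38e-05), and 11.7% of tested genes had a lower fold change. It was the one member called lower.

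**Figure D2:**
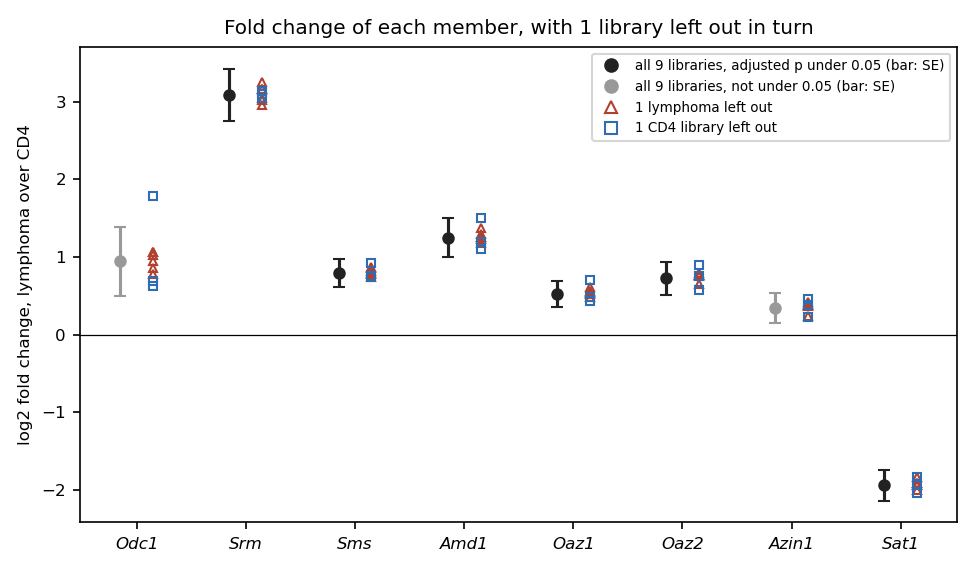
Log2 fold change of each gene, lymphoma over CD4 (vertical axis), as a filled point with its SE from all 9 libraries, and beside it the values with 1 lymphoma (triangles) or 1 CD4 library (squares) left out. Odc1 moved most, to 1.79 without CD4 3, and no gene changed sign.

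Groups that did not overlap in CPM were found for 4 members with higher and 1 with lower values in lymphoma, beside 22.6% and 22.3% of tested genes (44.9% in all). Sms and Sat1 are on the X chromosome, and sex went with group in these libraries: Xist stood at 7.98 ± 2.64 CPM in the 6 lymphomas (mean and SD) against 547 ± 47.1 CPM in the 3 CD4 libraries, and Y-linked Ddx3y at 149 CPM against 0.548 CPM. Sex and group therefore cannot be told apart for these 2 genes, or for the others.

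The lymphomas also differed from each other in an order that the synthesis genes shared in part. Lymphoma 86 had the highest level of all 4 synthesis genes and of none of the 4 control genes. Among lymphomas it had the highest summed level of the cell division genes (3488 CPM) and the lowest of the T cell markers (2124 CPM). Its share of reads in genes was the highest there (49.1%). Its erythroid markers summed to 889 CPM, beside 12.2 to 217 CPM in the other lymphomas. Its TMM factor was the lowest of all libraries (0.926), and a lower factor gives a higher CPM for the same counts and depth. The part of these traits in its order was not tested. How often lymphoma 86 was the highest over all tested genes was not counted, so the counts of members above have no background. Lymphoma 70 had the lowest level of Srm, Amd1 and Oaz1, lymphoma 72 of Odc1 and lymphoma 34 of Sms. Lymphoma 53 was the highest for 3 of the 4 control genes, Oaz1, Azin1 and Sat1, and the lowest for Oaz2. These orders are over 6 libraries and have no test.

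Ratios inside a library do not depend on how libraries are scaled, so 5 pairs of members linked by biochemistry were compared as log2 ratios of counts, with exact two-sided permutation tests over the 84 assignments of 6 and 3 libraries. This form of the test doubles the smaller tail, so the smallest p it can give for such groups is 0.0238. The p-values were adjusted over the 5 pairs. The ratio of Srm to Sms, the spermidine over the spermine synthase, was 0.532, 0.629 and 0.593 in CD4 1, 2 and 3 and 1.64 to 3.33 in the lymphomas, with no overlap. It was 4.62-fold higher in lymphoma (log2 difference 2.21, higher in 6 of 6 lymphomas). The lowest Srm level among lymphomas (122 CPM) exceeded the highest Sms level there (108 CPM). In CD4 the highest Srm level (29.4 CPM) lay under the lowest Sms level (43.9 CPM). The separation of Srm over Sms thus follows from the members' own values and is given without a p. Amd1 over Sat1, the aminopropyl donor enzyme over the acetylating exit, was 0.451, 0.320 and 0.280 in CD4 and 2.06 to 3.93 in the lymphomas. It was 9.10-fold higher (log2 difference 3.19). Amd1 was higher and Sat1 lower in every lymphoma, so the separation of this ratio follows from the members' own values and is given without a p.

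The pairs around antizyme overlapped between groups. Odc1 over Oaz1, the enzyme over its antizyme, was 0.0379, 0.0437 and 0.148 in CD4 1, 2 and 3 and 0.0675 to 0.144 in the lymphomas (log2 difference 0.58, exact permutation p = 0.286, adjusted 0.310). Here CD4 3 had the highest value of all 9 libraries. Odc1 over Azin1, the enzyme over its inactive relative, gave a log2 difference of 0.77 (exact permutation p = 0.143, adjusted 0.238), and without CD4 3 the difference was 1.32. Without CD4 3 that of Odc1 over Oaz1 was 1.20. Both then had an exact permutation p of 0.0714, the smallest that this form of the test can give for 6 and 2 libraries. It could therefore make no call there. Azin1 over Oaz1, the inhibitor over the antizyme, was 0.2619, 0.2702 and 0.3141 in CD4 and 0.203 to 0.316 in the lymphomas, and its log2 difference of -0.19 was smaller than the SD of 0.265 among lymphomas (exact permutation p = 0.310, adjusted 0.310).

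**Figure D3:**
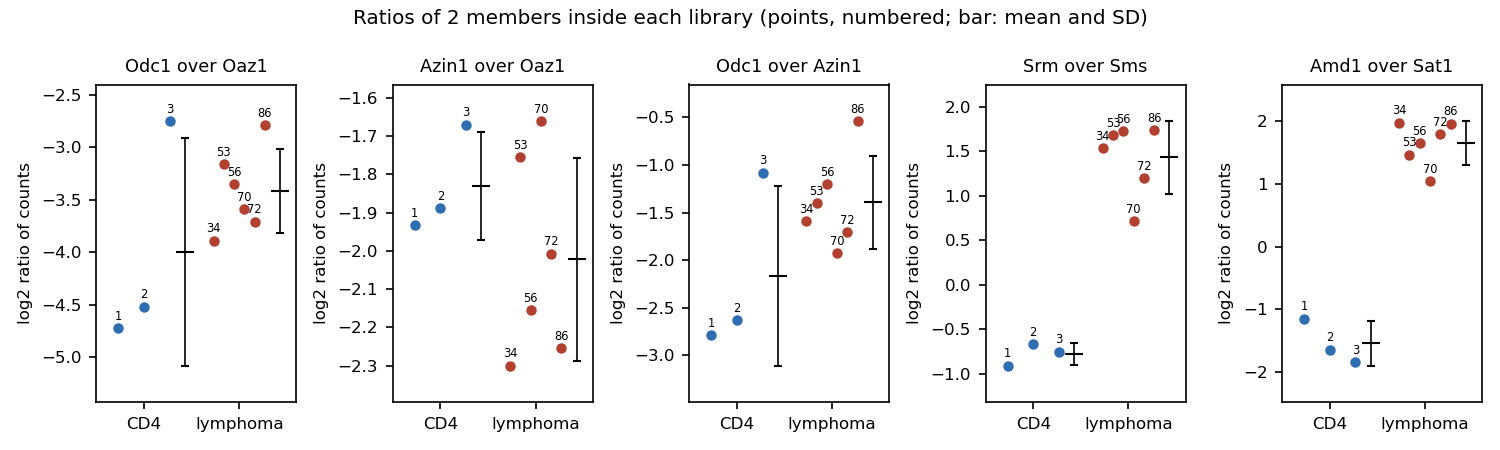
Log2 ratio of the counts of 2 members inside each library (vertical axes differ between panels), with every library as a numbered point and the mean with SD as a black bar. Srm over Sms and Amd1 over Sat1 separate the groups, and the 3 pairs with Oaz1 or Azin1 overlap.

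Around the 8 genes, lists of the supplying and using steps were examined in the same fit. The counts on these short lists are descriptions, to be read beside the 24.7% of all tested genes called higher and 21.9% called lower. In the methionine cycle and the salvage of methylthioadenosine, the by-product of both aminopropyl transfers, 9 of 10 listed genes were tested, 8 were higher, 1 was lower, and the median log2 fold change was 1.54. All 5 tested enzymes that take methylthioadenosine back to methionine were higher. Mtap, the phosphorylase that starts the salvage, stood at 33.3 ± 1.76 CPM in the 3 CD4 libraries and 119 ± 39.1 CPM in the 6 lymphomas (mean and SD), and rose by 1.84 (SE 0.291, edgeR adjusted p 0.000322). The next enzymes rose by 1.30 (Mri1), 2.08 (Apip), 1.54 (Enoph1) and 1.70 (Adi1) on the log2 scale. Ahcy, which clears S-adenosylhomocysteine, rose by 2.80 (SE 0.398) from 3.12 to 21.7 CPM, Mtr, which remakes methionine, by 1.14, and Mat2a, which makes S-adenosylmethionine, by 0.78. Mat2b, its regulatory partner, fell by 0.65 (SE 0.207, edgeR adjusted p 0.0227), a call lost without CD4 2 (adjusted p 0.0623) and without CD4 3 (0.138).

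Of 10 genes that supply arginine and ornithine, 6 were tested, 3 were higher, 0 lower, and the median log2 fold change was 1.04. Arg1, arginase of the cytosol, rose by 2.82 (SE 0.490, edgeR adjusted p 0.000614), with a mean and SD of 1.94 ± 0.605 CPM over the 3 CD4 libraries and 13.7 ± 6.29 CPM over the 6 lymphomas. It is abundant in some myeloid cells, whose markers are given above, and their part was not tested. Slc7a1 rose by 1.61 (SE 0.327, edgeR adjusted p 0.00178), and by 2.26 without CD4 3, so that the fold was 1.56 times as large. Slc25a15, the ornithine carrier of mitochondria, rose 3.03-fold (SE 0.360 on the log2 scale, edgeR adjusted p 0.00332). Oat, Ass1 and Asl, which handle ornithine, citrulline and argininosuccinate, were not called, with log2 fold changes of 0.27, 0.47 and -0.31.

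Spermidine also serves to modify the translation factor eIF5A with hypusine. Eif5a rose 6.07-fold (log2 fold change 2.60, SE 0.256, edgeR adjusted p 1.03e-05), from 71.2, 68.0 and 59.4 CPM in CD4 1, 2 and 3 to between 269 and 538 CPM in the lymphomas. Dohh, the second of the modifying enzymes, rose by 1.57 (SE 0.208, edgeR adjusted p 8.97e-05), whereas Dhps, the first, had a log2 fold change of -0.16 (SE 0.188, adjusted p 0.512). Of this list, 2 of the 4 genes were higher and 0 lower.

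Oxidases of polyamines were higher as well. Smox, which oxidises spermine, rose by 1.87 (SE 0.341, edgeR adjusted p 0.000852) from 7.64 to 27.9 CPM. Paox, which oxidises acetylated polyamines, rose by 2.09 (SE 0.372, edgeR adjusted p 0.000726) from 5.39 to 23.0 CPM. Every lymphoma exceeded every CD4 library in both, so these 2 tested genes of breakdown differed in direction from Sat1. Among 8 listed transporters 5 were tested, 3 were higher and 0 lower. Slc3a2, a heavy chain of amino acid carriers also linked to polyamine transport, rose by 1.21 (SE 0.195), and Atp13a2, which exports polyamines from lysosomes, by 0.64 (SE 0.169). The third was Slc22a3, a low-level cation carrier that rose by 3.57 (SE 0.864, edgeR adjusted p 0.00518), 2.90 without lymphoma 56, and that limma voom did not call (adjusted p 0.0573). Atp13a3 was not called (0.17, edgeR adjusted p 0.492).

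**Figure D4:**
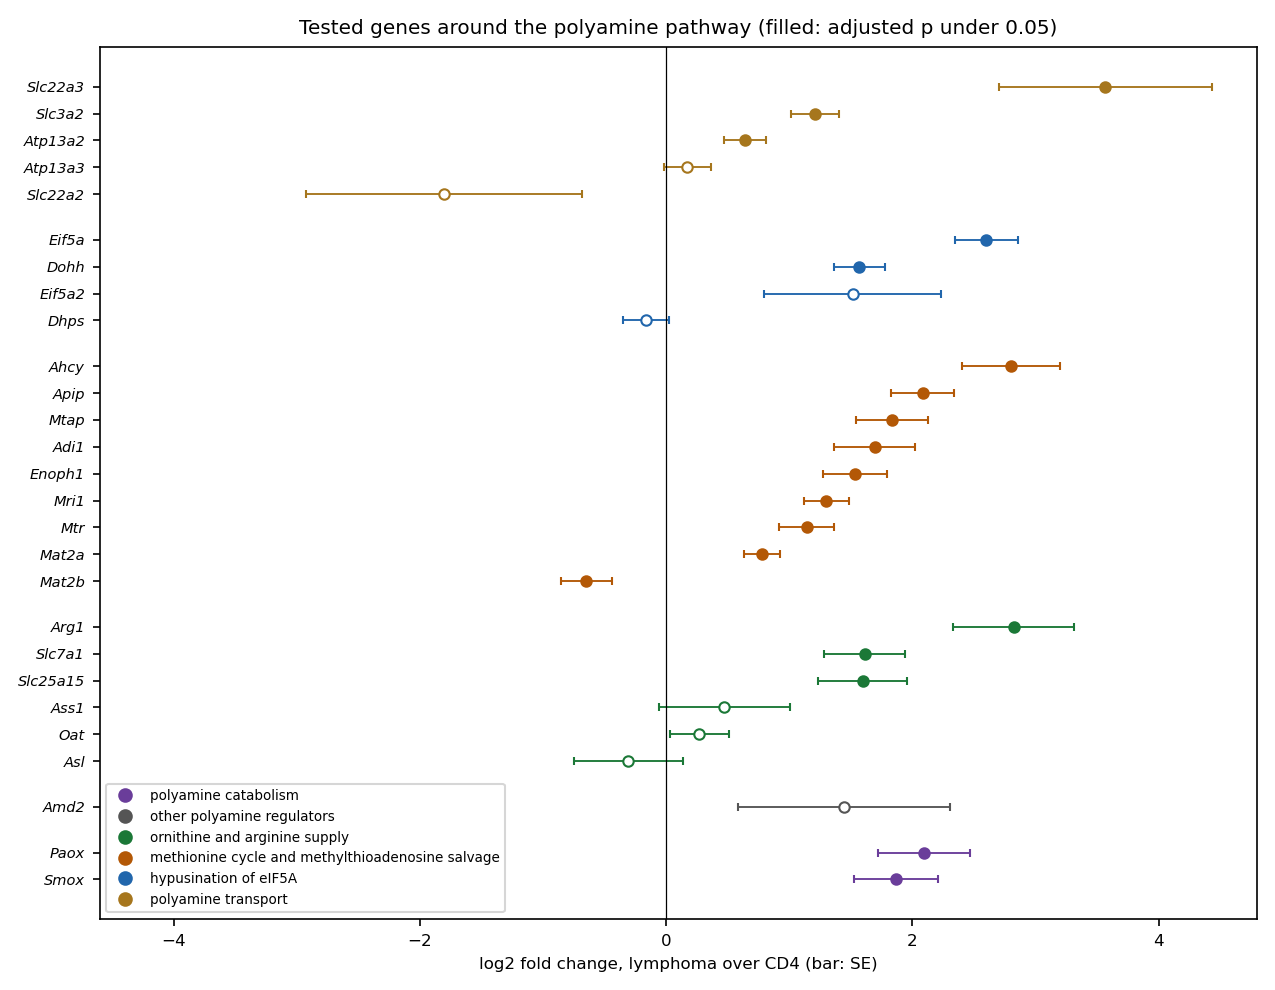
Log2 fold change, lymphoma over CD4, with SE (horizontal axis) of every tested gene on the 6 lists around the polyamine pathway, filled where the edgeR adjusted p was under 0.05. Filled points lie on the higher side for all called genes except Mat2b.

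Genes with the most similar profile over the 9 libraries were sought for 5 members among the other 9423 tested genes of average log2 CPM 3 or more, by the root mean square difference between profiles in log2 CPM, each centred at its own mean. For Srm these were Shmt1 (0.21), Abhd14a (0.23) and Eif5a (0.27). Like Srm, these 3 genes were highest in lymphoma 86 and lowest among lymphomas in lymphoma 70. That shared order largely follows from their choice by likeness to Srm over the same libraries. For Amd1 they were Rplp0 (0.11), Eif3g (0.12) and Pdap1 (0.12), and for Oaz1 Gm8430 (0.07), Ube2j2 (0.09) and Ywhag (0.09). For Sat1 they were Mcl1 (0.16), Rnf19b (0.18) and Fam134b (0.21), with log2 fold changes of -1.92, -1.81 and -1.71. The nearest to Odc1 lay farther off: Mad1l1 (0.32), Cdpf1 (0.38) and Heatr3 (0.38). They were highest in CD4 3 among the CD4 libraries, at 15.0, 10.6 and 21.2 CPM, which follows from their choice by likeness over the same 9 libraries. These distances describe 9 libraries in 2 groups and have no test.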

How the data were processed

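The authors deposited a raw read count for each of 46078 Ensembl genes in 9 libraries, per the file headers, with 5 closing rows for reads assigned to no gene. The submitters' processing notes name FastQC, HISAT2, SAMtools, HTSeq, mm10 and GRCm38. Versions, annotation, read length and strand handling are not given in the sources used here. Reads in those rows were 50.9% to 61.3% of each lymphoma and 65.0% to 72.2% of each CD4 library and were left out. Columns without a matching sample numbered 0.

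The counts went into edgeR 4.0.16 under R 4.3.3 with filterByExpr at a minimum count of 10, TMM, glmQLFit (robust) and glmQLFTest on 2 groups without covariates, with Benjamini-Hochberg adjustment over 15401 genes. SE is the absolute log2 fold change over the square root of F, and a prior count of 2 went into log2 CPM and the ratios. The code was tested on simulated data. Alternatives used limma 3.58.1 (voom) and DESeq2 1.42.0, and permutation tests scipy 1.17.1. Positions and transcripts are from GENCODE release M21 (GRCm38). Where 2 rows shared a symbol, the row with counts was used.

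The members, lists and ratio pairs were chosen with earlier results of these data known. Named genes are the 8 members, genes on the lists around the pathway that were called and had an average log2 CPM of 3 or more, the 3 nearest profiles of 5 members, and, for a marker list, its largest rise or fall (Cd4, Xist, Ddx3y). Slc22a3, Cd28, Mpo, Pecam1, Epcam, the stromal markers at 0 counts in CD4, and list genes that were not called or not tested were named after their values were seen. Mycn checks the labels, and Gm22748 was named as a gene that overlaps a member.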

Additional observations from a re-analysis of the deposited data

Results flagged for a closer look

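A screen over the 6 lymphomas took in 56 values (CPM of genes and log2 ratios), which are not all that the text names. Of these, 2 had a library far from the others by Dixon's 95% limit, where chance gives about 1 in 20. Mpo, Pecam1, Azin2 and Sat2 were among the named genes left out of the screen. Mpo stood at 181 CPM in lymphoma 34 and 11.5 CPM in lymphoma 56, the next highest. Slc22a3, the low-level cation carrier, stood at 15.0 CPM in lymphoma 56 and 1.95 to 5.84 CPM in the other lymphomas, a gap of 0.701 of the range. Asl, the argininosuccinate lyase, stood at 24.7 CPM in lymphoma 53 and 4.84 to 11.2 CPM in the others, a gap of 0.683 of the range. None of the 8 polyamine genes had such a library.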

How the results depend on the processing

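Over 20 alternatives of the fit, the number of called genes ranged from 4915 at an adjusted p under 0.01 to 8137 without lymphoma 53, and the number of called members from 4 to 6, against 7174 and 6 with all 9 libraries. Leaving out 1 library gave 5871 to 8137 genes and 5 or 6 members. No member changed sign. Srm, Sms, Amd1 and Sat1 kept their calls in all 20, with log2 fold changes of 2.96 to 3.31, 0.69 to 0.92, 1.11 to 1.51 and -2.05 to -1.83, and Azin1 was called in none. Odc1 was called without CD4 3 and without CD4 3 and lymphoma 53 together (1.71, edgeR adjusted p 0.00510, chosen after seeing the data), and otherwise not; its adjusted p ranged from 0.00510 to 0.322. Oaz1 lost its call in 4 alternatives and Oaz2 in 2. An adjusted p under 0.01 accounts for 1 each. The others left out CD4 2 or CD4 3, which leaves fewer libraries, and for Oaz1 CD4 3 with lymphoma 53 (0.45, edgeR adjusted p 0.0669). Upper quartile scaling moved the median log2 fold change of all tested genes from 0.04 to -0.06. The 5 ratios kept their direction in 10 alternatives each. Their adjusted p-values say nothing about stability. The smallest exact p of the permutation test used is 0.0357 for 5 and 3 libraries and 0.0714 for 6 and 2, before adjustment over 5 pairs. No paired analysis was possible because the groups share no replicate numbers.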

Other observations

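Relatives of the 8 genes were at or near the limit of these counts. Azin2, a second antizyme inhibitor, had 0 to 24 counts per library and Oaz3, an antizyme known from testis, 0 to 13. Sat2 had 0 to 10 counts, and Satl1 had 0 counts in all 9 libraries. Amd2, with 3 to 34 counts, was the one of these that passed the filter on low counts, and it was not called (log2 fold change 1.44, edgeR adjusted p 0.190).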
